A study of Mus musculus with 2 samples.

Results

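Intronic intervals of long genes are stretches of open chromatin that lie inside protein-coding genes of 200 kb or longer, away from exons and promoters. They were selected from the table of ATAC-seq intervals as the autosomal intervals that overlap such a gene in the GENCODE mouse annotation of build mm10, overlap no annotated exon of any gene and lie over 1 kb from every TSS, the start site of a protein-coding transcript. The rule used positions only and no counts. It selected 17624 of the 119502 intervals in the table, or 15.1% of the 116817 autosomal ones. They fell in 945 of the 953 autosomal genes of this length.

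The cells were mouse embryonic stem cells of the Olig2-mKate2 reporter line, differentiated towards spinal cord neural progenitors (NPs) until day 5, with 100 nM SAG, an agonist of Sonic hedgehog signalling, and 100 nM retinoic acid (RA) given from day 3, and sorted for the reporter. ATAC-seq was run on 50000 live cells per library, in 1 group of 2 replicates, with no other condition to compare with. By the study's account the sort also takes in motor neurons that have just formed and cells positive for both OLIG2 and NKX2.2, so the group is not a pure progenitor domain. The labels do not say whether the replicates were separate differentiations, so the spread between them may be technical.

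Long genes in the mouse are mostly genes of the nervous system, among them cell adhesion molecules, receptors, channels and transcription factors, and nearly all of their length is intron. Introns hold many enhancers, short sequences where transcription factors bind and keep nucleosomes away, and the Tn5 transposase of ATAC-seq inserts preferentially into such open DNA. An intronic element need not act on the gene that holds it.

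Counts were divided by DESeq2 size factors and are given as normalised counts, or per kb of interval as a density. Both libraries were deep, at 31876165 and 31672240 counts in intervals. The labelled cell type was checked at promoters: the TSS intervals of the progenitor genes Olig2, Nkx6-1, Sox2 and Pax6 had densities of 613 to 1452 (means of 2 libraries), those of the pluripotency genes Zfp42 and Esrrb had 237 and 282, and no interval covered a TSS of Pou5f1 or Nanog. Promoters of genes of 200 kb or longer had a median density of 735. Pax6, at 613, lay below it and Sox2, Olig2 and Nkx6-1 above it, so the check is a coarse one.

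The strongest of these elements are shown by 9 of the 10 densest members and by the densest member of Gli2 and of Gli3. The central 120 bases of each are given from the GRCm38 (mm10) reference, 5′ to 3′, in lower case, with matches to any of 14 transcription factor motifs in capitals. Motifs were matched on both strands, so a match can stand as the reverse complement. The E-box that OLIG and NEUROG factors prefer was searched as CAGATG. The motif of SOX factors was searched as ACAAAG. Homeodomain factors were represented by TAATTA. Letters in capitals mark a match and not a bound site.
Gphn, chr12:78350962-78351081, plus strand: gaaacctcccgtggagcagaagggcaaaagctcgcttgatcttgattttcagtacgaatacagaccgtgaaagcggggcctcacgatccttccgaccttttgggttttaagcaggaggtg
Vti1a, chr19:55556642-55556761, plus strand: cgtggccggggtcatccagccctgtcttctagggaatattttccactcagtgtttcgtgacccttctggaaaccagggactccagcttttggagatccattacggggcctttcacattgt
Nrg1, chr8:32069079-32069198, plus strand: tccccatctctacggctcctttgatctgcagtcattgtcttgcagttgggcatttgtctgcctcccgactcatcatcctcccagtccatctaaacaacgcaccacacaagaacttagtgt
Srgap3, 3.38 kb from the 5′ end, chr6:112943831-112943950, plus strand: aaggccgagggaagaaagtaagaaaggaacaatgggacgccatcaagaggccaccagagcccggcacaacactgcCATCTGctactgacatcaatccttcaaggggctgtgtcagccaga
Cntn3, chr6:102564287-102564406, plus strand: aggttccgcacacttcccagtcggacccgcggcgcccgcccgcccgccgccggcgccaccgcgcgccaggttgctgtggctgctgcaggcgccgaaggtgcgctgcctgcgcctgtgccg
Efna5, chr17:62778184-62778303, plus strand: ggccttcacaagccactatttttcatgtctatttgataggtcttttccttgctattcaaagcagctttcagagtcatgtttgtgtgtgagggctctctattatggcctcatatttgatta
Ptprn2, chr12:117173028-117173147, plus strand: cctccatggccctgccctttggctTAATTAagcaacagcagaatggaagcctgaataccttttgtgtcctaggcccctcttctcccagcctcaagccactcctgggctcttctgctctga
Gm20388 and Galnt2, chr8:124284428-124284547, plus strand: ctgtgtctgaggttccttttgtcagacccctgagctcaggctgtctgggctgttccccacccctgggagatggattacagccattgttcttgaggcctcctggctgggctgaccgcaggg
Srgap3, 17.2 kb from the 5′ end, chr6:112929957-112930076, plus strand: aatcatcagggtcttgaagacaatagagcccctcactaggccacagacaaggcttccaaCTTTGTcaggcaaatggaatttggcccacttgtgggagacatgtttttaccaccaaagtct
Gli2, chr1:119033868-119033987, plus strand: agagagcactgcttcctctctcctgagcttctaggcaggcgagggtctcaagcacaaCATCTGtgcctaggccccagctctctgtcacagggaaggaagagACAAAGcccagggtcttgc
Gli3, chr13:15624694-15624813, plus strand: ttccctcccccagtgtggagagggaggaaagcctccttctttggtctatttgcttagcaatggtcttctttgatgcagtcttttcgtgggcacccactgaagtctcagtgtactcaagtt

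Across these 11 windows 4 held a match. The GC content ran from 39.2% in the Efna5 window to 78.3% in the Cntn3 window. The window of Gli2, an effector of hedgehog signalling, held both an E-box and a SOX match.

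The densest member lay in an intron of Gphn, which encodes gephyrin, a scaffold of inhibitory synapses, at chr12:78350868-78351174. It had 1111 counts in replicate 1 and 1083 in replicate 2 over only 307 bp, densities of 3620 and 3526 (3573 ± 66.6, SD, n = 2). Its sequence had alignments of 100 bp or longer, at 90% identity or above, to 9 other places in the genome, whereas none of the other 8 described had such a match. How repeated copies enter its count was not tested.

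The next densest member was in Vti1a, a gene for a SNARE protein of vesicle fusion, at chr19:55556245-55557158, with densities of 3263 and 3352. Nrg1, which encodes the growth factor neuregulin 1, held a member 815 kb from its 5′ end at chr8:32068696-32069580, with densities of 3074 and 3161. Srgap3, a GTPase-activating protein that regulates neuronal morphology, held 2 of them, at chr6:112943560-112944221 with 3003 and 3168 and at chr6:112929638-112930395 with 2318 and 2446. The replicates thus differed little at each of these elements. The other 4 lay in introns of Cntn3, an adhesion molecule, of Efna5, an ephrin ligand of axon guidance, of Ptprn2, a receptor-type phosphatase of secretory vesicles, and of the predicted gene Gm20388, where the interval also lies in Galnt2. Their mean densities were 2740, 2718, 2392 and 2383 in that order. Of the 9 members, 6 lay over 50 kb from the nearest protein-coding TSS, and the Srgap3 and Cntn3 members lay 2.53 to 16.4 kb from it.

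These elements stand at the end of a wide range. The median member was 444 bp long and had 49 counts in replicate 1 and 51 in replicate 2. Its density was 117 in replicate 1 and 121 in replicate 2 (119 ± 2.79, SD, n = 2), and the central 80% of members ran from 49.7 to 354. A density of 1000 was exceeded by 247 members (1.40%), against 1.56% of intervals in introns of shorter genes and 1.81% between genes. The 1762 members with the highest counts, 10% of all, held 51.4% of the members' counts in replicate 1 and 51.2% in replicate 2. The same share was not computed for other intervals, so it cannot be called particular to long introns. Together the members took 6.43% of all counts in replicate 1 and 6.68% in replicate 2.

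A mean of over 100 normalised counts, a limit the study applied when it called differential accessibility, was reached by 4913 members, or 27.9% (Wilson 95% interval 27.2 to 28.5%, counting error only), against 38.7% of all autosomal intervals. The share was 27.2% in introns of shorter genes and 31.1% between genes.

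To ask whether intronic elements of long genes differ in strength from other distal elements, the members were compared with 22794 intronic intervals of genes under 200 kb, chosen by the same exon and TSS limits, and with 40589 intervals that overlap no annotated gene. The shorter genes' intervals had median densities of 118 and 120 in replicates 1 and 2, and the ratio of long to shorter was 0.99 and 1.00 (0.996 ± 0.00817, SD, n = 2). The replicates fell on both sides of 1, so no difference was detectable. Intergenic intervals were denser, with medians of 126 and 128, and the ratio of members to them was 0.928 and 0.941 (0.935 ± 0.00880). Members were less dense than intergenic intervals in both libraries, though an exact two-sided sign-flip permutation test over 2 libraries cannot give a p under 0.5, which is the value it gave here.

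**Figure D1:**
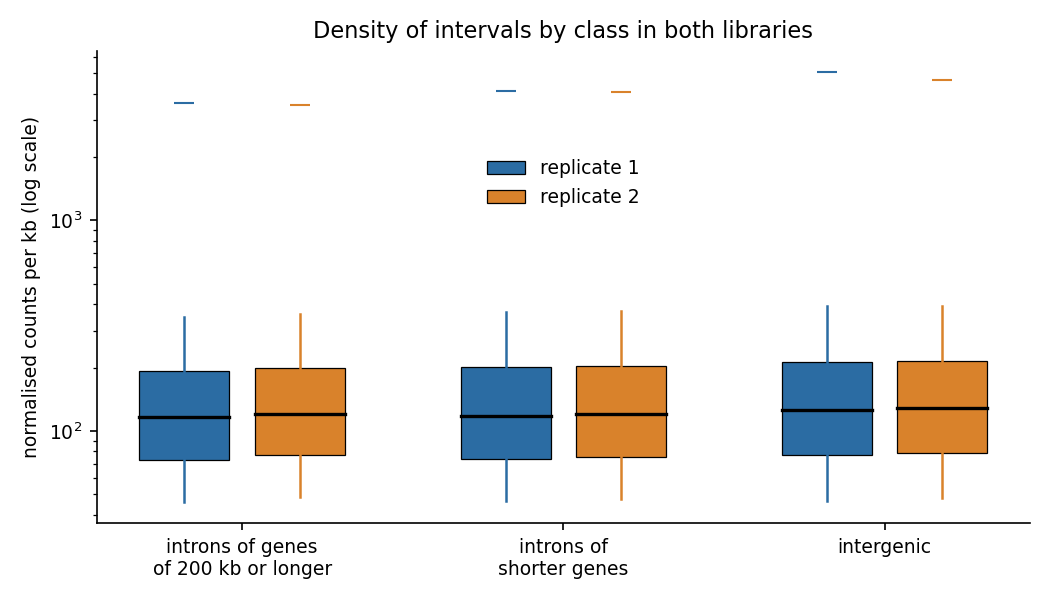
Density of intervals (normalised counts per kb, log scale) in the introns of genes of 200 kb or longer, in introns of shorter genes and between genes, for each library. Boxes span the middle 50% of intervals with the median as a line, whiskers run from the 10th to the 90th percentile and the short dash marks the densest interval; the medians of 117 and 121 for long genes are close to the 118 and 120 of shorter genes.

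The number of elements per length of intron depended on the length of the gene. Eligible intron, the part of the gene bodies free of exons and over 1 kb from any protein-coding TSS, came to 388.5 Mb in long genes and held 4.54 members per 100 kb. In shorter genes the rate was 4.83, a ratio of 0.940 (95% interval 0.921 to 0.958, counting error only, with 1 interval set and no replicates). Between genes it was 3.16 per 100 kb, so that long introns held 1.43 times as many (1.41 to 1.46, counting error only). Unsequenced bases of the reference were not taken out of these lengths, and their part in this ratio was not tested.

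The rate was not the same among long genes. It was 5.80 per 100 kb in genes of 200 to 300 kb, 4.66 in those of 300 to 500 kb, 3.95 in those of 500 to 1000 kb and 3.63 in genes over 1000 kb. Of the 2740 intervals in this last class, 490 lay in the Gm20388 model and 157 in that of Fgfr2, which span many other genes. The median gene over 1000 kb had 2.76 members per 100 kb, and the median gene of 500 to 1000 kb had 3.47. On the other side of the 200 kb limit, genes of 100 to 200 kb had 5.60, so the rate was highest around the limit itself. Accordingly, with long genes taken as those of 100 kb or longer the ratio to shorter genes was 1.11 (1.08 to 1.13), above 1, and with 500 kb it was 0.774 (0.754 to 0.794). The rates of shorter genes are lowered by the overlap rule, since an interval that touches an exon or a TSS window is lost while the bases beside it still count as eligible. With intervals counted by their midpoint, chosen after seeing the data, genes under 50 kb had 5.38 in place of 3.92 per 100 kb and genes over 1000 kb 3.81 in place of 3.63. The classes between them had 5.67, 6.17, 6.22, 4.89 and 4.12 by midpoint, in order of length. At the 200 kb limit the ratio of long to shorter genes by midpoint was 0.832 (0.817 to 0.848). The ratio of 1.11 at 100 kb was found with the overlap rule and was not recomputed by midpoint, so whether it would stay above 1 was not tested. Median density moved little with gene length, between 117 and 122 in all 7 length classes (means of 2 libraries).

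**Figure D2:**
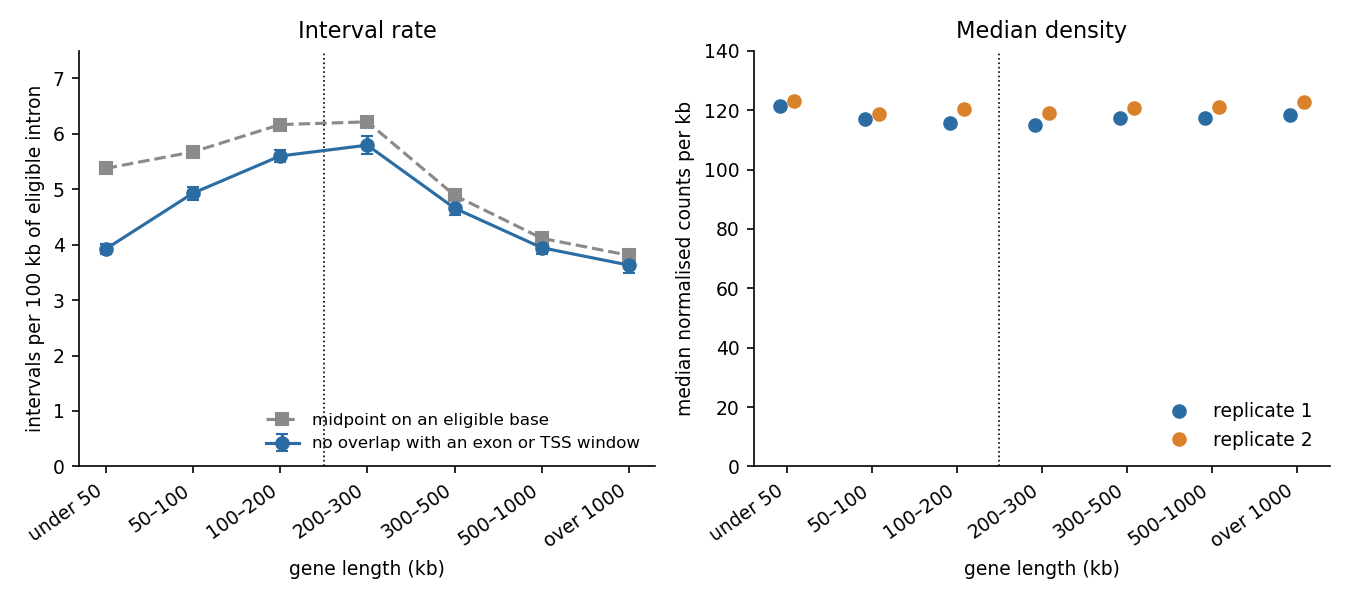
Left, intronic intervals per 100 kb of eligible intron by gene length (kb), for intervals that overlap no exon or TSS window (circles, bars are 95% counting intervals) and for intervals counted by their midpoint (squares). Right, their median density in each library. The dotted line marks 200 kb. The rate is 5.80 just above it and falls to 3.63 in genes over 1000 kb, a class that includes the Gm20388 and Fgfr2 models. The density stays between 115 and 123 in both libraries.

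Across the 953 long genes, the number of members rose with gene length (Spearman's coefficient 0.415, Pearson's r 0.439 on log scales), while the rate per 100 kb fell with it (Spearman -0.21, r -0.22). These are descriptions across genes, which are not independent replicates. The median density of a gene's members was not ordered by length (Spearman -0.04 over 945 genes). A typical long gene held 15 members, 35 genes held over 50 and 14 held a single one. At least 1 member of over 100 normalised counts was present in 848 of the 953 genes (89.0%).

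Genes with an interval at their own TSS held more intronic signal. An interval covered a protein-coding TSS in 872 long genes and in none of the transcripts of the other 81. The interval set was defined with 3 further libraries, so such an interval need not be strong in these 2. The median promoter density was 735, but Aoah had 9.22 and Esr1 26.1. The median gene with a TSS interval had 399 normalised counts in members per 100 kb of eligible intron in replicate 1 and 411 in replicate 2. The median gene without had 178 and 189. The ratio was 2.23 and 2.17 (2.20 ± 0.0463, SD, n = 2), above 1 in both libraries, with the exact permutation p again at its floor of 0.5. It was 1.84 without the gene models that hold 3 or more other protein-coding genes. Promoter density was also related to the member rate among the 872 genes (Spearman 0.257, r 0.265, across genes).

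The gene models themselves set some of the largest numbers. Gm20388, a predicted gene annotated over 4435 kb of chromosome 8, spans 71 other protein-coding genes and held 490 members. Fgfr2, a fibroblast growth factor receptor, is annotated over 2961 kb with 29 protein-coding genes inside, and held 157. The predicted gene Gm37240, which spans 6, held 82. In all, 815 members (4.62%) lay in a long gene that holds 3 or more protein-coding genes, 179 (1.02%) lay in more than 1 long gene and 473 (2.68%) also lay in a shorter one. Leaving out the models that hold 3 or more genes changed the share of members over 100 counts to 27.5%.

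Among genes that span no other, Zfhx3 held the most members. This homeodomain and zinc finger transcription factor gene (chr8:107942644-108961630) held 106, or 10.8 per 100 kb, with median densities of 143 and 139. Nrxn3, a presynaptic adhesion molecule, had 95, Auts2, a regulator of neuronal gene expression, 91, and Wwox, an oxidoreductase gene at a fragile site, also 91. Lrmda, a gene of melanocyte differentiation, had 79, with median densities of 151 and 160 beside a promoter density of only 116. Foxp1, a forkhead factor, had 78, and Pard3, a polarity protein, 74. Per 100 kb these 7 genes ran from 5.99 in Nrxn3 to 14.2 in Pard3, so the order by number was not the order by rate.

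The highest rates were in genes of 202 to 443 kb. Gse1, a chromatin-associated coiled-coil protein (chr8:120228456-120581390, inside the Gm20388 model), had 20.2 members per 100 kb, Cmip 19.7, Msi2, an RNA-binding protein of neural progenitors, 19.4, Zmiz1, a transcriptional coactivator, 18.6, and Zfp423, a zinc finger factor, 18.6. Arid1b, a subunit of the BAF chromatin remodelling complex, had 17.5, Agap1 16.0, Trio 15.8, Usp29 15.6 and Rnf220, a ubiquitin ligase, 15.2. Gse1 stood out in density as well. Its 68 members had medians of 279 and 289 in the 2 libraries, and 44 of them exceeded 100 normalised counts. The members of Zmiz1 were nearly as closely packed but had medians of only 85.1 and 92.0, so a high rate did not go with a high density there.

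Among the 10 longest genes, 7 had rates below the 4.33 per 100 kb that was the median of all long genes, and Gm20388, Fgfr2 and Nrxn3, at 12.6, 5.89 and 5.99, lay above it. Ptprd, a receptor phosphatase of synapse formation that spans 2271 kb, held 51 members or 2.29 per 100 kb. Cntnap2, a neurexin-family protein, had 1.80, Lsamp, an adhesion molecule of the limbic system, 2.16, Csmd1, a complement-related membrane protein, 1.30, and Macrod2, a hydrolase of ADP-ribose marks, 3.50. Lrp1b, a lipoprotein receptor gene of 2058 kb (chr2:40595246-42653624), held 25 members with medians of 89.1 and 87.4, only 1 of them over 100 normalised counts. Dlg2, a scaffold of excitatory synapses, had no TSS interval but held 50 members with medians of 153 and 159. Its members were thus no weaker than those of long genes in general.

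**Figure D3:**
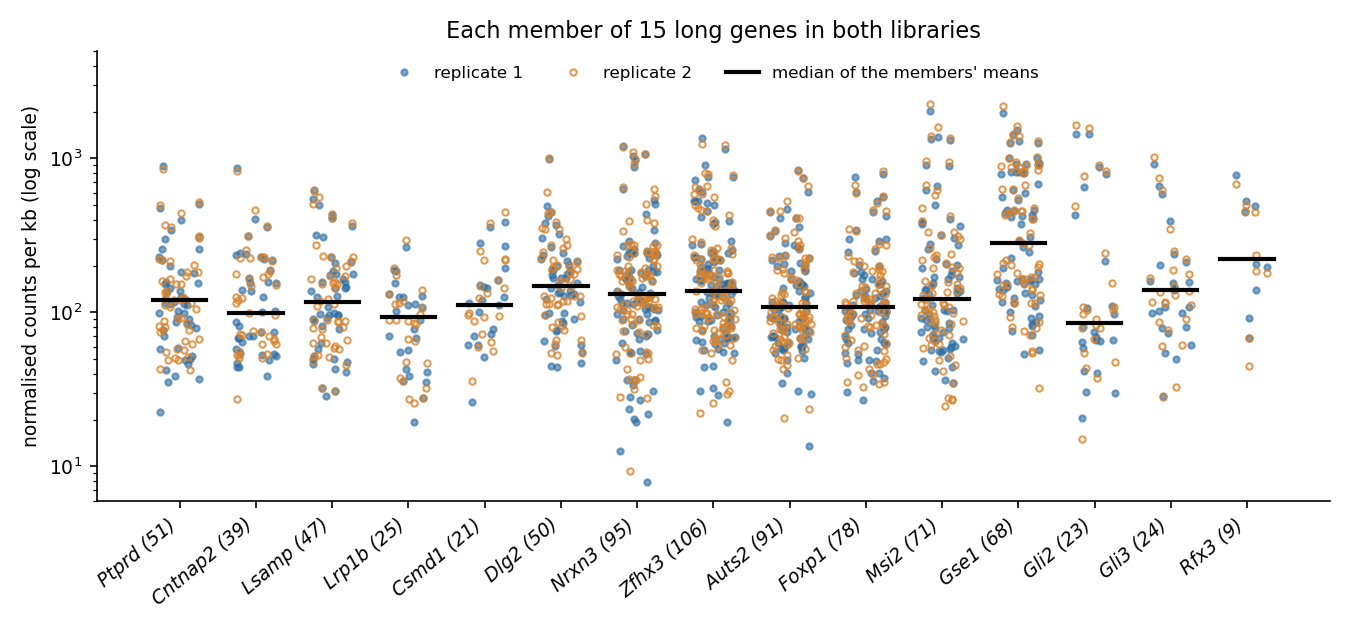
Density of each member (normalised counts per kb, log scale) in 15 named long genes, in replicate 1 (filled) and replicate 2 (open), with the median of the members' means as a bar and the number of members in parentheses. Gse1 has a median of 284, above the other 14 genes, and each gene spans more than 10-fold between its members.

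Of the 8 genes without a member, 3 had a TSS interval. These were Klhl1, a neuronal actin-binding protein, with a promoter density of 368, Brinp3, a gene of neuronal differentiation, with 442, and Asb3 with 879. Skint5 and Skint6, epithelial immunoglobulin-family genes of over 480 kb, had neither a TSS interval nor a member.

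Median rates differed between gene lists, though the ranges of the lists overlapped. The lists were chosen with earlier results known and share genes, and they are described by counts and medians only. Over all long genes the median rate was 4.33 members per 100 kb. The 47 long genes for transcription factors and cofactors had a median of 7.49, and 38 of them lay above the median of all long genes. All but 1 had a TSS interval. Normalised counts in members per 100 kb had a list median of 863 in replicate 1 and 894 in replicate 2, against 375 and 390 over all long genes. Zfp423 led the list by rate at 18.6, followed at 13.8 by Foxp1. Meis2, a homeodomain factor of the TALE class, had 12.1, Npas3, a bHLH-PAS factor, 7.74, and Sox6 and Sox5, SOX factors of neural and glial development, 6.48 and 5.60. Erg, an endothelial and blood factor without a TSS interval, was lowest at 2.30.

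The 37 genes for ion channels and neurotransmitter receptors were at the other end. Their median was 2.18 members per 100 kb, with 8 above the median of all long genes, although 97.3% had a TSS interval. The list medians of counts per 100 kb were 147 and 158 in the 2 libraries. Dpp10, an auxiliary subunit of potassium channels, held only 2 members in 724 kb, with medians of 23.4 and 26.3. Cacna1c, a calcium channel, held 42 or 7.29 per 100 kb, and Grik4, a kainate receptor subunit, 35 or 8.38, so the list was not sparse throughout.

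These 2 lists kept their sides of the median of all long genes under other counts chosen after seeing the data. Counting only members of over 100 normalised counts, the list medians were 1.97 for transcription factors and 0.520 for channels and receptors, with 1.01 over all long genes. Without chromosome 8 the medians were 7.43 and 2.13 against 4.28. The channel genes were longer, with a median length of 494 kb against 346 kb for the transcription factor genes. The part of length in the difference was not tested.

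The remaining lists lay between. The 17 axon guidance genes had a median of 4.81 with 11 above that of all long genes, and by number of members it was led by Slit3, a secreted guidance ligand, with 71 or 12.3 per 100 kb, and by its receptor gene Robo1 with 47 or 6.55. Efna5, with 32, had 11.8 per 100 kb, and Epha5, an ephrin receptor, had the fewest members, 5. The 43 adhesion genes had a median of 3.35 with 16 above, from 0.787 up to 11.3. Their median length was 805 kb, against 327 kb over all long genes, and the median gene of 500 to 1000 kb had a rate of 3.47. The part of length in this list's place was not tested. Tenm2 and Tenm4, teneurins that bridge synaptic membranes, had 5.60 and 8.92, and Cntn6, a contactin, had the fewest members, 4. The 23 developmental signalling genes had a median of 4.35 with 12 above, and Dab1, an adaptor of reelin signalling, held 70 members and Fgf14, an intracellular fibroblast growth factor, 7. Among the 9 RNA-binding protein genes the median was 4.95 with 5 above, but they ran from Khdrbs2 at 0.652 to Msi2 at 19.4.

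The 16 genes at common fragile sites had a median of 3.04 with 3 above, and Wwox at 10.1 was the highest of them. Their median length was 1397 kb, and the median gene over 1000 kb had a rate of 2.76. Here too the part of length was not tested. Nbea, a protein of vesicle traffic, had the fewest members, 12. The 19 genes chosen for other tissues had a median of 2.67 and 9 above, but this list did not hold its place. Its median was 3.67 without chromosome 8, and counting only members of over 100 normalised counts it was 1.19, above the 1.01 of all long genes. Mecom and Ebf1, transcription factors listed for their part in blood, held 44 and 39 members. Dock2, an immune cell regulator without a TSS interval, held 25, and Ttn, the giant muscle protein, held 3. A TSS interval was present in 15 of the 19 genes, among them Mecom and Ebf1, with promoter densities of 797 and 790. The name of the list thus does not mean that its genes were closed in these cells.

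**Figure D4:**
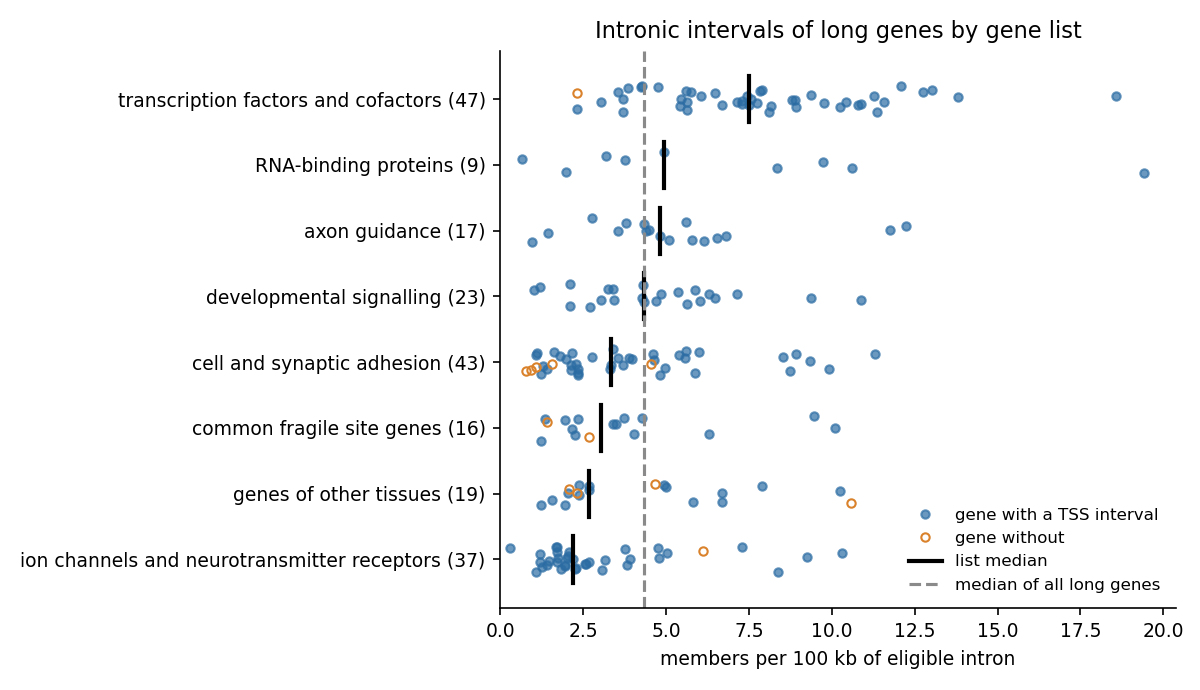
Members per 100 kb of eligible intron for each long gene of 8 lists (number of genes in parentheses), filled where an interval covers a TSS of the gene and open where none does, with list medians as bars and the median of all long genes, 4.33, as a dashed line. The transcription factor list sits mostly to the right of the line and the channel and receptor list mostly to the left.

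The hedgehog effectors Gli2 and Gli3 had rates above the median of the transcription factor list, though their numbers of members were below its median of 27. Gli2 (chr1:118834132-119053619) held 23, or 10.9 per 100 kb, and Gli3 (chr13:15463235-15730026) held 24, or 9.38. In Gli2 the member at chr1:119033482-119034372, 19.7 kb from the 5′ end, had densities of 1448 and 1644. Another at chr1:118910675-118911634, 142 kb from it, had 1435 and 1573. The typical Gli2 member was far weaker, with medians of 75.0 and 103. In Gli3 the densest member, at chr13:15624257-15625250, had 926 and 1014, and the medians were 125 and 132. Rfx3, a regulator of cilia, held 9 members, 3.84 per 100 kb, with medians of 205 and 237.

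Members close to the 5′ end of the gene were fewer and denser. Members 0 to 10 kb from the annotated 5′ end had median densities of 161 and 174 in the 2 libraries, and 38.2% of them exceeded 100 normalised counts. At 10 to 25 kb the medians were 107 and 116 and the share was 25.3%. From 25 kb on the median density stayed between 116 and 123 (means of 2 libraries), as far as the members over 800 kb away. The rate ran the other way, at 3.55 members per 100 kb in the first 10 kb, 4.88 at 10 to 25 kb, a maximum of 5.14 at 50 to 100 kb and 3.84 at 400 to 800 kb. Counted by midpoint, the first 10 kb still had the lowest rate, 3.93 per 100 kb. Distant bins hold only the longest genes, so distance and gene length cannot be told apart in them. Neighbouring members of a gene lay a median of 10.7 kb apart, and 24.8% of the gaps were under 5 kb.

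**Figure D5:**
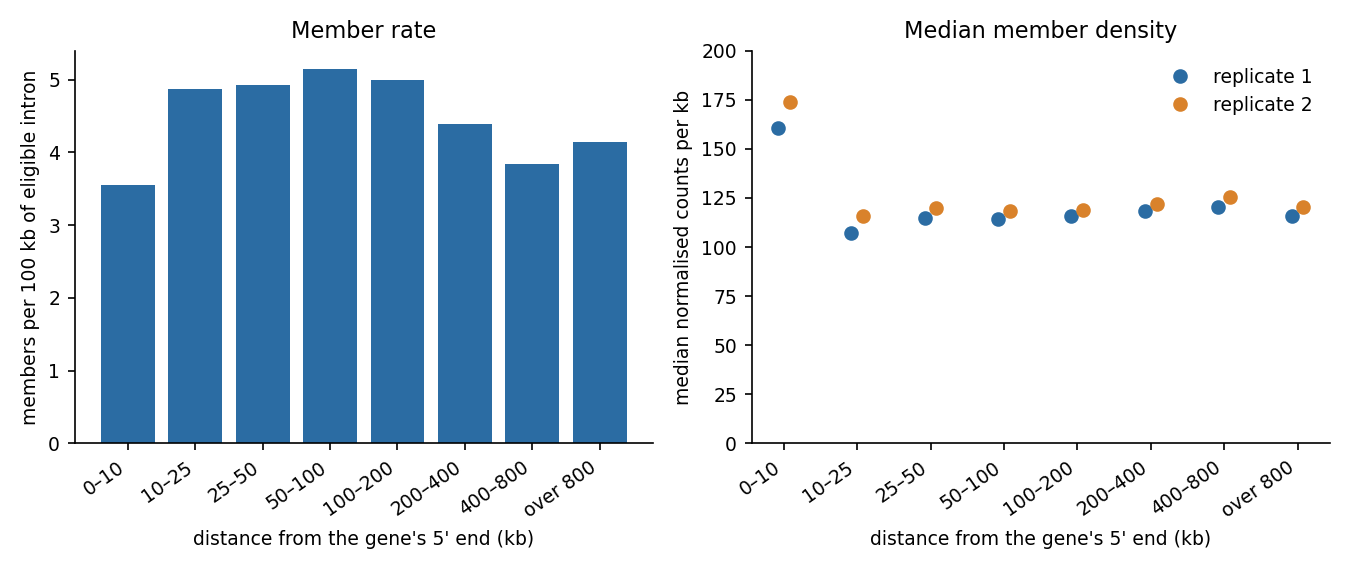
Members per 100 kb of eligible intron (left) and their median density in each library (right) by distance from the 5′ end of the gene in kb. The first 10 kb combine the lowest rate, 3.55, with the highest density, 161 and 174.

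By chromosome, the rate was highest on chromosome 8, at 6.61 members per 100 kb. Chromosome 11 followed at 5.79, and chromosome 10 was lowest at 3.68. The Gm20388 model supplied 490 of the 1666 members of chromosome 8, at 12.6 per 100 kb of its 3889 kb of eligible intron. Whether chromosome 8 would stay above chromosome 11 without this model was not tested. Intronic intervals of shorter genes were also most frequent on chromosome 8, at 7.10 per 100 kb. Of the 10 genes with the highest rates, Gse1, Cmip and Zfp423 lie there. Without chromosome 8, which was left out after seeing the data, the ratio of long to shorter genes in rate was 0.931 (0.912 to 0.950).

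Sequence was compared in a window of 300 bp around the midpoint of each interval. In intervals shorter than 300 bp the window also held flanking sequence. Members were less GC-rich than the other classes, with a median of 46.7% against 49.0% in shorter genes' introns, 47.3% between genes and 49.0% in all autosomal intervals. Few windows were mostly repeat: 3.43% of the members' windows were over 50% repeat-masked, against 5.76% in shorter genes and 7.06% between genes. In the densest 10% of members, 1763 intervals, the share was 1.64%.

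Of the 14 motifs, searched on both strands, the SOX motif ACAAAG was present in 37.8% of members (Wilson 95% interval 37.0 to 38.5%, counting error only). It was present in 32.3% of intervals in shorter genes, 35.1% between genes and 31.2% of all autosomal intervals. The homeodomain motif TAATTA was in 9.67% of members against 6.62%, 8.68% and 6.99%. The E-box CAGATG was in 30.7% against 29.2%, 29.3% and 27.0%, and the E-box CAGCTG in 22.7% against 23.8%, 21.9% and 22.3%. The CTCF core AGGGGGC was rarer in members, at 5.07% against 6.67%, 6.15% and 7.32%. The members thus held more of the SOX and homeodomain motifs and less of the CTCF core than the shorter genes' intervals, in windows of lower GC content, whose part in this was not tested.

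The motifs also differed with density among the members. In the densest 10% the SOX motif was in 42.4% of windows and in the least dense 10% in 32.2%. The TEAD motif GGAATG was in 27.4% and 15.8%. The E-box CAGATG ran the other way, at 27.7% and 37.7%. The homeodomain motif was in 10.3% and 11.9%, whose intervals overlap. The GLI core GGGTGGTC was in 1.36% and 0.681%, against 1.03% of all autosomal windows, and its intervals overlap as well (0.916 to 2.02% and 0.390 to 1.19%). The densest 10% had longer intervals, with a median of 757 bp against 383 bp, and a GC content of 47.3% against 45.0%. The least dense 10% had a median of only 13.0 normalised counts, against 420 in the densest 10%, so many of them were barely open in these 2 libraries. The part of interval length, of low counts and of flanking sequence in these motif shares was not tested. Other motifs searched were TGTTTAC for FOX (5.53% of members and 4.38% of all), ATGCAAAT for POU (2.42% and 2.07%), GTTGCC for RFX (11.4% and 11.9%), TTGGCA for NFI (15.7% and 14.7%), TGANTCA for AP-1 (10.8% and 9.79%), AGATAAG for GATA (3.76% and 3.44%) and AGGTCA for nuclear receptors (22.0% and 21.0%). Matches of different motifs may overlap.

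The 2 libraries gave nearly the same picture of the members. With normalised counts as log2(count + 1), R2 between the replicates was 0.941 over the members, with 0.934 in shorter genes' introns and 0.947 between genes. The coefficient of variation beyond counting noise, from edgeR's common dispersion, was 3.86%, 3.48% and 3.30% in these classes. An exact binomial test of the 2 counts of each interval, adjusted by Benjamini-Hochberg over all intervals with a limit of 0.01, called 0 members, and 0% of all intervals. At an unadjusted p under 0.05 it named 1368 members, or 7.76%, against 8.39% of all intervals. Such a call would set 1 library apart from the other and would say nothing of a condition.

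Among the 4913 members of over 100 normalised counts none differed by more than 2-fold and 11 by more than 1.5-fold, and the log2 ratio had an SD of 0.16. A member in Mllt3, a transcription elongation factor gene, had 107 and 174 counts, and members in Anks1b, a synaptic scaffold, and Nrxn3 had 96 and 154 and 83 and 133. In Arl15 and Hdac4 the direction was opposite, with 185 and 116 and with 138 and 84 counts. The smallest adjusted p among these 5, in Arl15, was 0.115 by the exact binomial test. Replicate 1 had no count in 5 members and replicate 2 in 9, which allows up to 3 counts at each.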

How the data were processed

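Live-cell ATAC-seq libraries of 1 group (n = 2) were analysed. The authors deposited raw fragment counts per consensus interval, made on mm10 with featureCounts 2.0.1 (minimum overlap 0.2 of a fragment, and a fragment in several intervals counted in each). The intervals came from 5 libraries, and the 3 columns of other libraries were not used. Aligner versions are not given in the sources used here.

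Intervals were placed on the GENCODE vM21 annotation (GRCm38). Counts were scaled with DESeq2 1.42.0 size factors; edgeR 4.0.16 TMM factors and total counts were alternatives, and edgeR's common dispersion gave the variation between libraries. Ratios were computed per library, with exact sign-flip permutation tests. Calls used an exact two-sided binomial test, tested on simulated data. Sequences were read from GRCm38.p6, and matches elsewhere were sought with BLAST+ 2.17.0. Python 3.11.15 and scipy 1.17.1 were used.

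Named genes were taken from the 10 with most members, with the highest rates (at least 100 kb of eligible intron) and the longest; the 5 longest without members; the 4 with most and the 1 with fewest members in each list, of which some are left out for length; the 10 densest members, of which 1 is not reported here; the 5 members differing most between libraries; and Gli2, Gli3 and Rfx3. Meis2, Sox5 and Sox6 were named after their values were seen. The members and lists were chosen with earlier results of these data known.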

Additional observations from a re-analysis of the deposited data

How the results depend on the processing

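The 7 main results and the rates of the transcription factor and channel lists were recomputed with 1 choice changed at a time, over 61 alternatives in all, of which 16 were added after seeing the data. Shares of motifs and repeats, densities by distance, rates by chromosome, correlations across genes and the other lists were not part of this. The rate ratio of long-gene to shorter-gene introns, 0.940, turned to 1.11 when long genes began at 100 kb, where genes of 100 to 200 kb, at 5.60 per 100 kb, change sides. That value was found with the overlap rule, which lowers the rates of shorter genes, and was not recomputed by midpoint. Its counting interval reached 1 with only intervals of over 100 normalised counts (0.964, 0.928 to 1.0005).

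The density ratio to shorter genes, 0.996, was 1.03 per interval, 0.972 with means, 1.03 with a TSS distance of 5 kb, 0.987 and 1.01 with gene lengths of 100 and 500 kb, and 0.987 without chromosome 8, on both sides of 1. The ratio to intergenic intervals, 0.935, was 0.923 with means and 0.946 with a TSS distance of 5 kb, below 1 in each. The signal ratio of genes with and without a TSS interval, 2.20, was 1.86 summed over genes, 1.96 by number of members, 3.27 for genes of 500 kb or longer, 1.92 without chromosome 8 and 1.84 without models that hold 3 or more genes. The replicate R2, 0.941, was 0.962 with a pseudocount of 10, 0.975 over 100 normalised counts and 0.938 as the squared Spearman coefficient. The percent of members over 100 counts, 27.9, was 27.1 for genes of 500 kb or longer. Where no cause is named, the cause was not tested. Calls between libraries stayed at 0 under each alternative tried.

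Leaving out each replicate gave density ratios of 0.991 to 1.00 to shorter genes and 0.928 to 0.941 to intergenic intervals, signal ratios of 2.17 to 2.23 and shares of 27.6 to 28.3%. No paired analysis was possible because the libraries form a single group. The sign-flip test used here cannot go below 0.5 with 2 libraries, and rates rest on 1 interval set without replicates. At a median of 49 to 51 counts, single members are imprecise. Intervals were defined with 3 further libraries, and gene models decide which intervals count as intronic.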
